A study of Gallus gallus with 403 samples.

Results

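The interferon response genes were described across 20 chicken tissues and the ages at which each was sampled. They were a list of 32 gene symbols, read from expression arrays through the platform's gene annotation. Of these, 27 had a probe set, out of 13009 genes with a probe set of a single symbol. STAT2, USP18, IFITM3, LGALS3BP and ISG20 had no probe set under those symbols and were not analysed here. Each gene was read from the probe set with the highest mean over all arrays.

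Interferons are proteins that cells release after sensing infection, and they act on receptors of the same and neighbouring cells. The receptors activate Janus kinases and STAT proteins, and the target genes switched on encode antiviral effectors, further sensors of foreign nucleic acid, transcription factors that extend the response and inhibitors that end it. Many of these genes also have a resting level, which is often higher in tissues rich in immune cells or in contact with the outside. Chickens lack the sensor RIG-I, and IFIH1 (MDA5) is their main known cytosolic sensor of viral double-stranded RNA.

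Total RNA of Gallus gallus was taken from 101 groups of a tissue at an age. A pectoralis group of 6 arrays has day 28 in its titles but day 21 in its source names, so no age was assigned to it. In 94 there were 4 arrays, with replicates 1 and 2 labelled male and 3 and 4 labelled female. Lung was taken at days 1, 7, 14, 21, 28, 35 and 42, spleen at days 1, 7, 14, 21 and 28, liver at days 0, 1, 3, 7, 9, 49 and 56, and whole intestine at days 0, 1, 3, 7, 14, 21 and 28. Jejunum was taken at days 1, 7, 14, 21, 28, 35 and 42, duodenum at days 0, 1, 7, 14, 21, 28, 35, 42 and 49, abdominal fat at days 1, 7, 10, 14, 21, 28, 35, 42 and 49, and brain at days 0, 1, 7, 8, 9, 14, 21, 28, 35, 42 and 49, with 2 sets at day 7. Retina was taken at days 1, 7, 9, 14, 21, 28 and 35, and pineal gland, tibiotarsus growth plate and gastrocnemius muscle at days 1, 7, 14, 21 and 28. Pectoralis muscle was taken at days 0, 1, 7, 14, 21 and 28, with 2 sets at day 21. Cecal epithelia were of day 14, ileum of day 28 and cerebral cortex of day 7. The gonads and germ cells came from older birds: ovarian cortex of week 16, testes of week 17, ovary of week 17 and of 2 years, and oocytes of week 21. The labels name no strain, diet, treatment or infection for any group, and nothing in them says that replicates came from separate birds, so the p-values measure only the spread between these samples. Sample numbers fell into 2 runs of 251 and 152 arrays, and ages were tested against each other only within a run. Levels of arrays are also set side by side across the runs, where age and run cannot be told apart.

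Marker genes were checked against the tissue labels. The lung, spleen and intestine markers were higher in all 7, all 5 and all 24 of their own groups than in any other group. The 24 were of duodenum, jejunum, ileum and whole intestine, at 10.49 or more. Cecal epithelia were not among them, and their intestine markers were at 6.84 or less. For spleen markers, cecal epithelia were the highest group outside spleen, at 9.51. What this adds to their interferon response was not tested. Brain markers were so in 9 of 13 groups of brain and cerebral cortex, with a lowest group mean of 9.68, and fat markers in 6 of 9 abdominal fat groups, with 6.29 at day 1. The group labelled liver day 56 was the only liver group with 3 arrays. Its mean liver marker level was 6.49 on the log2 scale, against up to 13.76 in the other liver groups. The counts of the liver age comparisons are given with and without it, and the tissue levels and rankings include it. In the second run, the descriptions of 120 arrays name another tissue than their titles and source names, and the titles were used. Replicate 3 of ileum day 28 and replicate 3 of jejunum day 28 correlated at r = 0.9949, above their correlations with their own groups, and were both counted in their tissues. Every array of gastrocnemius day 21 and of the second pectoralis set of day 21 correlated best with the other muscle, and these groups were left out of the tissue fits but are in the tissue levels and rankings. Every array of pectoralis day 1, day 14 and the second set of day 28 also correlated best with gastrocnemius, and these groups were kept throughout. For this day 28 set the matches were gastrocnemius day 21 arrays, at r from 0.9837 to 0.9852, against at most 0.9263 within the set. For days 1 and 14 the matches were at 0.9083 to 0.9339, close to the values within those groups. The median SD of a gene between replicates was 0.1 to 0.235 in 45 groups and 0.382 to 0.56 in 56, so small differences are less reliable in the latter.

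An interferon response level was computed for every array as the median, over the 27 measured genes, of the gene's log2 intensity minus its median over all group means. At a level of 0 the median gene stood at its own median over the groups, and a level of 1 is a doubling of intensity. Spleen had the highest level, 2.82 ± 0.73 (SD over 5 groups), then lung at 1.95 ± 1.07 (7 groups) and jejunum at 1.89 ± 0.35 (7 groups). The single ileum group was at 1.85 and the single group of cecal epithelia at 1.21. Whole intestine was at 0.83 ± 0.58 and duodenum at 0.71 ± 0.49. Liver stood at 0.19 ± 0.79, which includes the group labelled day 56 at -0.66, and abdominal fat at 0.05 ± 0.21. The lowest levels were those of growth plate (-0.61 ± 0.13), brain (-0.89 ± 0.26) and retina (-0.91 ± 0.21). Spleen and lung overlapped, with group means from 1.56 to 3.35 in spleen and from 0.88 to 3.74 in lung. Lung and jejunum did not differ beyond their spread over groups, and neither did brain and retina. The single ileum group lay within the range of the lung groups and of the jejunum groups. Along the gut the level was higher in jejunum and ileum than in duodenum. The arrays of duodenum reached 1.5, however, and those of jejunum went down to 1.18. Levels could differ between runs at the same tissue and age. The brain set of day 7 averaged -0.75 in the first run and -1.24 in the second.

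**Figure D1:**
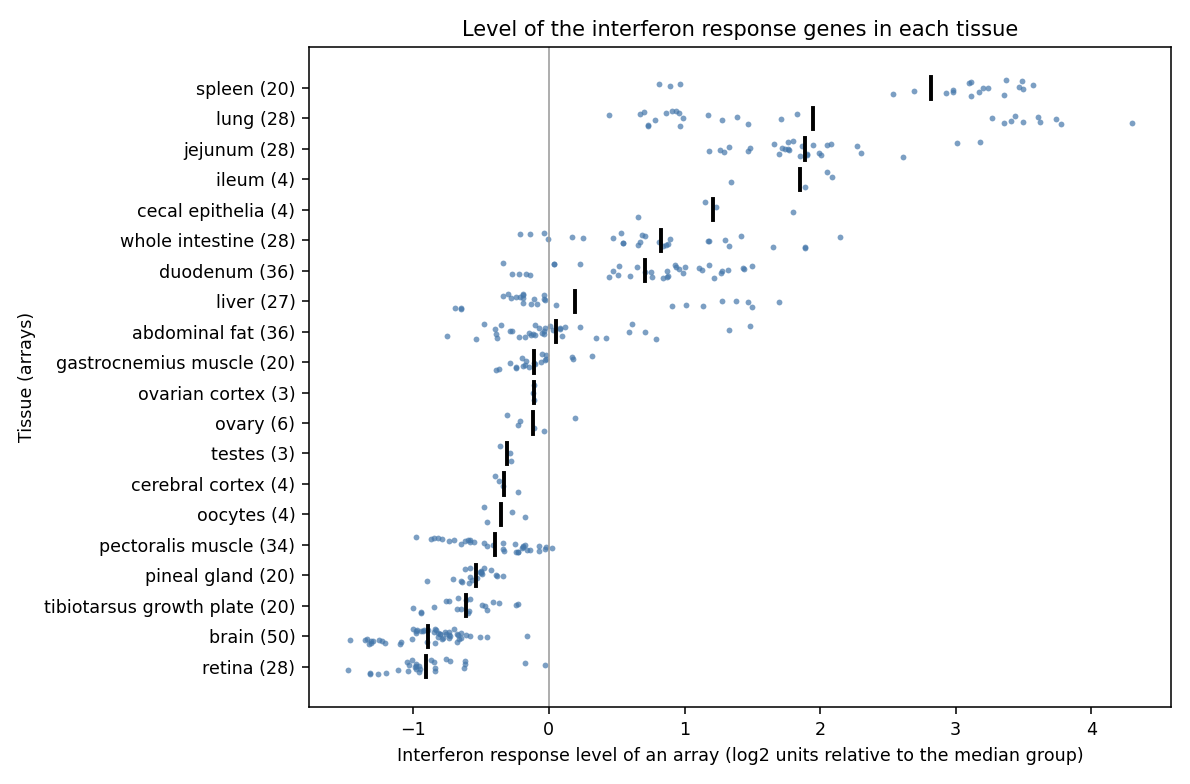
Interferon response level of every array (x axis, log2 units relative to each gene's median over the groups) by tissue (y axis, number of arrays in brackets). Black lines are means of group means. Spleen and lung arrays spread most, from 0.81 to 3.57 and from 0.44 to 4.3.

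Most members shared the top place of spleen, while the tissues below it differed from gene to gene. Of the 27 measured genes, 22 had their highest level in spleen. Over all 27 genes, the second highest tissue was lung for 9, ileum for 8, jejunum for 4 and cecal epithelia for 3. It was liver, spleen and testes for 1 gene each. IFIT5, the only IFIT gene known in chicken and an RNA-binding antiviral protein, averaged 12.26 in spleen, 11.28 in lung and 5.26 in oocytes, where it was lowest. MX1, a dynamin-like GTPase that blocks viruses in mammals, averaged 11.46 in spleen and 5.58 in retina. OASL, the chicken member of the oligoadenylate synthetase family, averaged 11.72 in spleen, 11.2 in jejunum and 10.31 in whole intestine. IFI6, a small mitochondrial protein, was highest in gut. It reached 13.87 in jejunum, 13.82 in ileum and 13.26 in whole intestine, and was at 13.02 in spleen and 12.97 in lung. MYD88, the adaptor of most Toll-like receptors, averaged 11.82 in spleen and was above 7 in every tissue, with its lowest mean, 7.44, in brain.

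In gonads a few genes departed from the order of the interferon response levels. XAF1, a pro-apoptotic protein, averaged 11.1 in testes and at most 5.33 in any other tissue. PARP12, an ADP-ribosyltransferase that restricts viruses in mammals, averaged 10.95 in testes and 8.81 in spleen, its next tissue. DTX3L, a ubiquitin ligase that pairs with PARP9, was second highest in testes at 9.49. MX1 averaged 9.6 in ovarian cortex and 8.52 in ovary, above its levels in most somatic tissues, while IFIT5 averaged 6.02 and 5.88 there. These gonad values rest on 3 arrays a group.

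**Figure D2:**
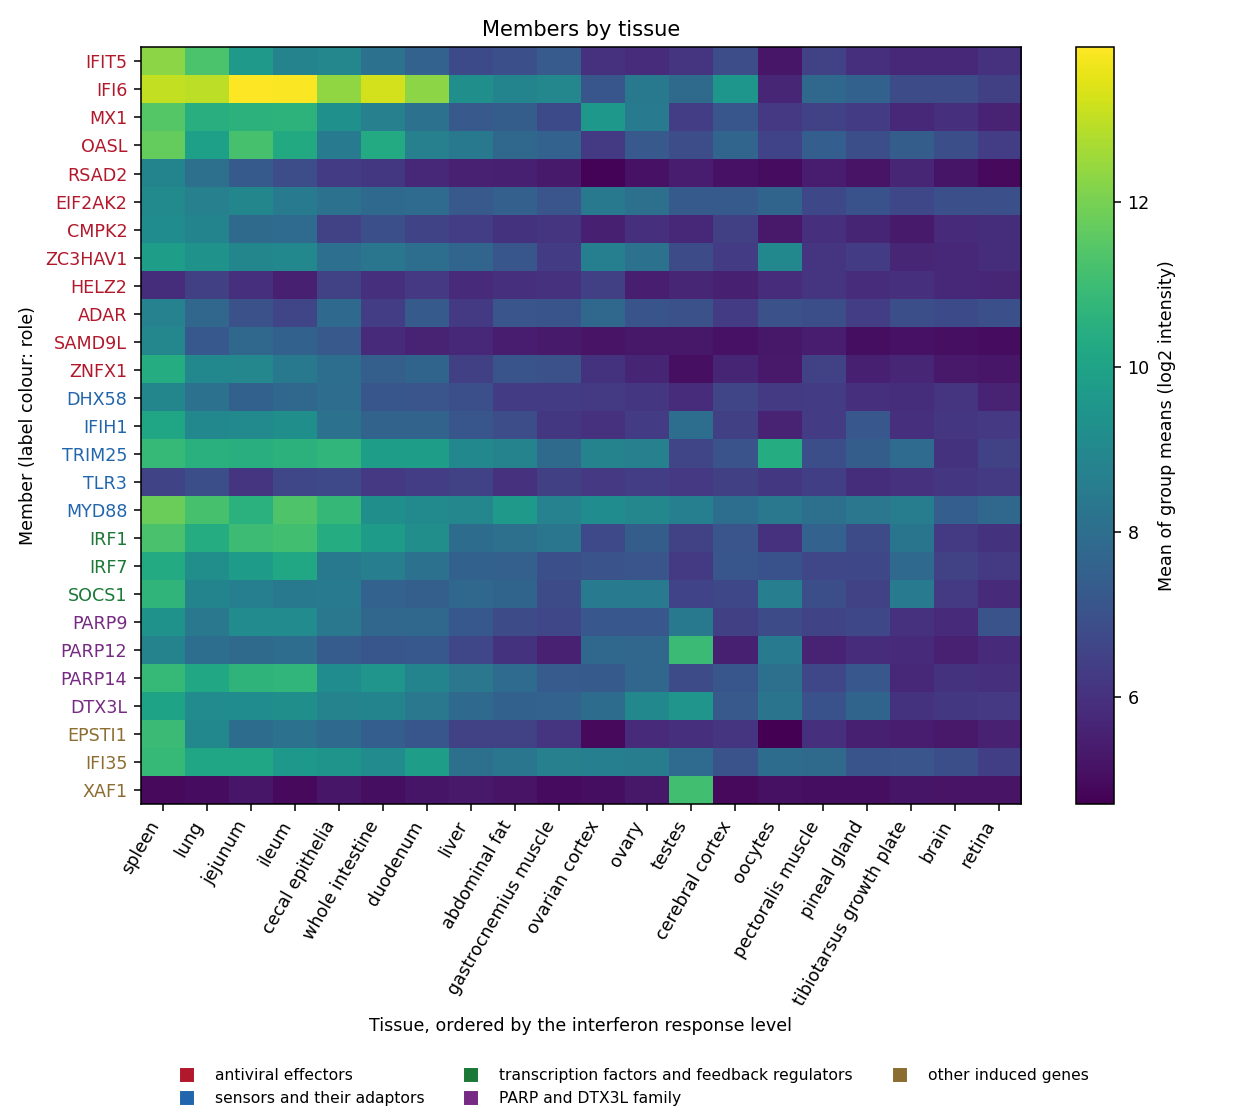
Mean of group means (colour, log2 intensity) of the 27 measured genes (rows, label colour by role) in 20 tissues (columns, ordered by interferon response level). Most rows are brightest in spleen at the left; IFI6 is brightest in jejunum, and XAF1 and PARP12 in testes.

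The members rose and fell together. Over the 101 group means the median correlation between pairs of members was 0.79, and over the 28 lung arrays it was 0.87. These points share tissues, and all genes of an array share its RNA, so the values are descriptions. HELZ2, a helicase coactivator, correlated with the median of the other members at 0.26 over group means and -0.17 over lung arrays. XAF1 did so at -0.1 and -0.11, and TLR3, the endosomal receptor for double-stranded RNA, at 0.29 and 0.5. ADAR, an RNA-editing enzyme, followed the others at 0.42 over group means and 0.8 over lung arrays. All other members were at 0.78 or more on both counts. The separate probe sets of TLR3 and HELZ2 agreed poorly with the one used, at r from 0.046 to 0.118 and from 0.104 to 0.428, and so did those of TRIM25, at 0.154 to 0.464, PARP12, at 0.27 to 0.765, MYD88, at 0.281, and ZNFX1, at 0.353. With probe sets averaged, ZNFX1 kept its calls in the comparisons that name it, at differences down to 1.07 in size. Levels of the same gene are compared here and never levels of different genes, since probe sets differ in brightness.

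Spleen was tested against the equally weighted mean of 15 other somatic tissues with limma, over all genes. A gene passed when its Benjamini-Hochberg adjusted p was below 0.05 and its log2 difference was 1 or more in size. In the comparisons between tissues, SE and p rested on the spread between replicates, pooled over 379 arrays. They leave out the spread between ages of a tissue. Of the 27 members, 24 were higher in spleen, where 11.1% of 12967 genes were. Their median difference was 2.61 on the log2 scale, against -0.04 for all genes. Of the effectors 11 of 12 were higher, with IFIT5 at 12.26 against 7.47, a difference of 4.79 ± 0.19 (SE; adjusted p = 3.42e-76). EPSTI1, a stromal interaction protein induced by interferon, differed by 4.26 ± 0.15, MX1 by 3.69 ± 0.19 and ZNFX1, a helicase-like sensor of viral RNA on mitochondria, by 3.45 ± 0.13. OASL differed by 3.35, SOCS1, the inhibitor of Janus kinases, by 3.22, SAMD9L, a growth and antiviral regulator, by 3.03 and IFI6 by 2.99. All 3 transcription factors and feedback regulators and all 4 members of the PARP and DTX3L family passed, and 4 of 5 sensors and adaptors did. HELZ2 (-0.05), TLR3 (0.23) and XAF1 (-0.21) did not pass. The count was 24 within each run of sample numbers.

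Other genes of the pathway were counted in spleen by list. All 8 measured antigen presentation genes passed, among them CIITA, the master regulator of class II genes, at 3.80 ± 0.11. Of 9 other signal transducers 7 were higher, of 12 sensing genes 8, and of 9 receptors and kinases 3. Of 3 measured interferon genes only IFNG passed, with a difference of 1.24 ± 0.10. Markers of immune cells moved with these genes: 7 of 9 T and cytotoxic cell markers, 5 of 8 B and plasma cell markers and 11 of 13 macrophage and granulocyte markers were higher in spleen. Their part in the result was not tested. In whole tissue, more cells of a type and more RNA per cell cannot be told apart.

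One group of spleen stood apart within itself. At day 28 the interferon response level was 0.81, 0.97, 3.57 and 0.89 in replicates 1 to 4, whereas the other 4 groups spanned 2.54 to 3.5. RSAD2 (viperin), a radical SAM enzyme that makes a chain-terminating nucleotide, read 5.08, 4.90, 10.36 and 5.03 in the same order. MX1 read 7.67, 7.95, 12.88 and 7.68. Replicate 3 was slightly above the level of every other spleen array and the other 3 arrays were below all of them. The spleen markers were at 11.62, 11.96, 11.67 and 11.55 in these 4 arrays and the T and cytotoxic cell markers at 9.36, 9.34, 9.38 and 9.05, so these lists differed little. The macrophage and granulocyte list was at 10.76, 10.83, 11.06 and 10.65, so that the 3 arrays with a low response were also below every other spleen array on this list, the next being at 10.92. The endothelial list was at 8.33, 8.48, 7.97 and 8.29. On it the same 3 arrays were above every other spleen array, the next being at 8.17. What the cells of either list contributed was not tested. Without the group, 24 members again passed in the spleen comparison and the difference of IFIT5 was 5.30.

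Lung was higher than the other somatic tissues for 22 of 27 members, where 9.29% of genes were. Their median difference was 1.61, against -0.03 for all genes. IFIT5 differed by 3.74 ± 0.17 (adjusted p = 1.5e-67), IFI6 by 2.94 ± 0.14 and MX1 by 2.64 ± 0.17. These SEs do not show the spread within lung. IFIT5 had an SD of 1.72 over the 7 lung groups, and its lung arrays ran from 8.32 to 14.28. CMPK2, a mitochondrial nucleotide kinase next to RSAD2 in vertebrate genomes, differed by 2.25, RSAD2 and EPSTI1 by 2.15 each, ZC3HAV1, the zinc-finger antiviral protein, by 2.12 and PARP14 by 2.03. The count was 16 in the first run and 23 in the second. Of the immune cell lists, no T or B cell marker passed, 6 of 13 macrophage and granulocyte markers were higher, and 6 of 7 endothelial markers were higher. Their part was not tested.

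The lung mean hid a wide spread between arrays of the same age, so every array is given. At day 1 the interferon response level was 1.28, 0.78, 3.41 and 3.62 in replicates 1 to 4. At day 7 it was 0.99, 3.27, 3.74 and 1.71. At day 14 it was 0.94, 0.91, 0.70 and 0.96, and at day 21 it was 0.86, 1.83, 0.67 and 0.44. Days 14 and 21 held no array above 1.83. At day 28 the levels were 1.17, 3.44, 3.61 and 1.39, at day 35 they were 3.50, 4.30, 3.36 and 3.78, and at day 42 they were 1.47, 0.73, 0.73 and 0.97. Ordered from the top, the tenth array was at 3.27 and the eleventh at 1.83, and no array lay between. Days 1, 7 and 28 each had arrays on both sides of this gap, day 35 had all 4 above it and days 14, 21 and 42 had all below. Days 1, 35 and 42 were of the second run and the other days of the first. The 2 higher arrays of day 1 were labelled female, and at days 7 and 28 the 2 higher arrays were 1 labelled male and 1 labelled female.

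**Figure D3:**
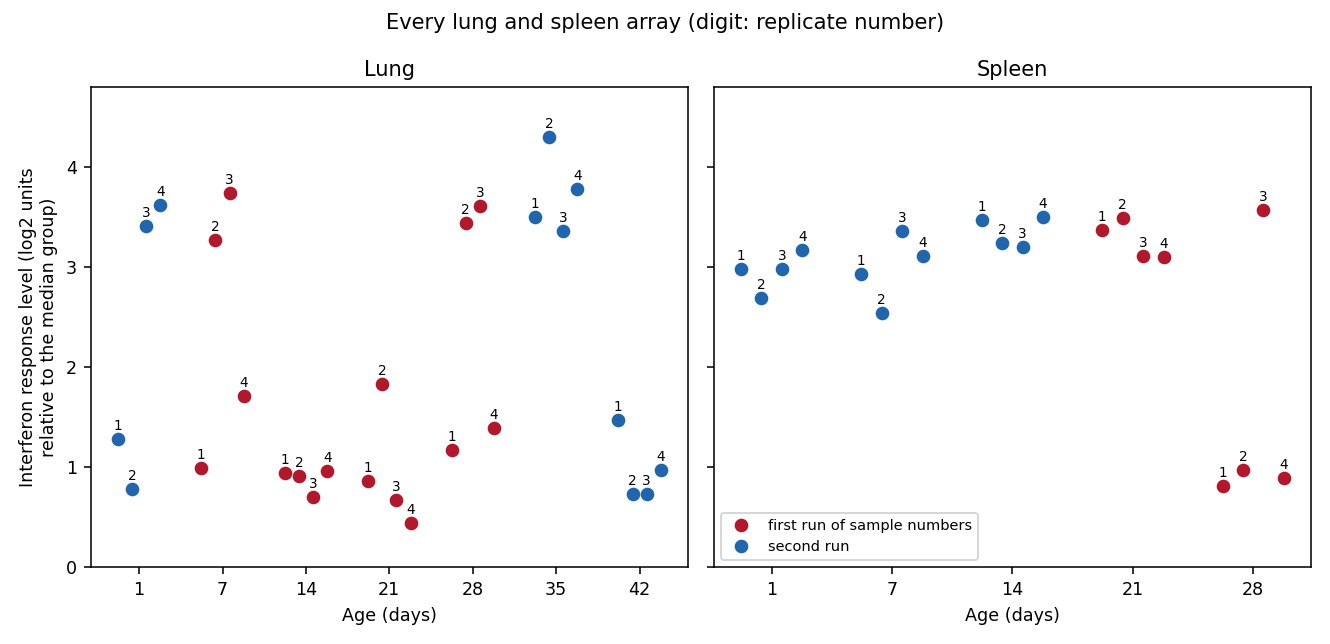
Interferon response level (y axis, log2 units relative to each gene's median over the groups) of each of 28 lung and 20 spleen arrays by age in days (x axis). Digits are replicate numbers and colours the 2 runs of sample numbers. Lung arrays of days 1, 7 and 28 lie both above 3 and below 2, and spleen day 28 has 1 array at 3.57 and 3 under 1.

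Single effectors showed the same gap. IFIT5 in lung read 11.67, 9.13, 13.65 and 13.46 at day 1, then 9.88, 14.04, 14.09 and 11.57 at day 7, and 10.63, 14.09, 14.28 and 10.98 at day 28. At day 14 it read 9.73, 9.73, 8.95 and 10.05, and at day 21 it read 9.59, 11.40, 8.91 and 8.32. Day 35 lay at 13.56, 12.88, 13.62 and 14.16 and day 42 at 10.44, 8.53, 8.86 and 9.67. The day 35 and day 42 arrays did not overlap. The day 28 arrays, which were of the other run, spanned the distance between them.

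RSAD2 was close to its lowest levels in many lung arrays and bright in others. It read 7.37, 5.63, 10.58 and 11.13 at day 1, 6.03, 11.24, 11.47 and 7.48 at day 7, and 6.61, 10.51, 11.54 and 7.26 at day 28. All 4 arrays of day 14 were between 5.78 and 6.19 and all 4 of day 35 between 10.49 and 11.38. MX1 read 10.23, 13.03, 13.26 and 9.89 at day 28 and 12.59, 12.98, 12.31 and 12.25 at day 35. OASL read 8.62, 12.70, 12.42 and 9.03 at day 28, and 12.76, 12.71, 13.27 and 12.56 at day 35. IFI6 was above 10 in all lung arrays and read 12.82, 14.26, 14.37 and 12.81 at day 28 and 12.75, 11.43, 10.67 and 12.71 at day 42. Over all 28 lung arrays OASL ranged over 6.33 log2 units, MX1 over 6.18, RSAD2 over 6.06, IFIT5 over 5.96 and IFI6 over 3.7.

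The age comparisons in lung reflected this spread. Between days 28 and 21, all 26 members tested were higher on average at day 28, with a median difference of 1.46 against -0.04 for all genes, and 42% of all genes had a difference above 0. No member passed the test in limma in either direction, where 0.0292% of 10259 genes passed as higher and 0.0195% as lower. At an unadjusted p under 0.05 there were 19 members and 1668 genes. IFIT5 averaged 12.5 against 9.56, a difference of 2.94 ± 1.00 (adjusted p = 0.188), MX1 differed by 2.86 ± 0.86 (0.154) and OASL by 2.70 ± 1.04 (0.232). Only 2 of 26 members had every day 28 array above every day 21 array, where 2.8% of genes did.

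Between days 35 and 42, 24 of 26 members were higher at day 35, where 2.14% of 10655 genes were. The median difference was 2.52 against -0.06 for all genes, and 25 of 26 members had every day 35 array above every day 42 array, where 4.66% of genes did. SOCS1 was at 11.41, 12.18, 10.87 and 12.04 at day 35 and at 6.71, 7.44, 6.45 and 7.89 at day 42, a difference of 4.50 ± 0.63 (adjusted p = 3.69e-05). OASL differed by 4.44 ± 0.63, IFIT5 by 4.18 ± 0.60 and RSAD2 by 4.18 ± 0.67. SAMD9L differed by 3.83, MX1 by 3.82, EPSTI1 by 3.66 and CMPK2 by 3.37. HELZ2 (-0.19) and TLR3 (0.98 ± 0.35, adjusted p = 0.148) did not pass. Of 2 ligands tested 1 passed, IFNW1, a type I interferon gene, which was higher by 1.66 ± 0.37 (adjusted p = 0.00768). Of 11 sensing genes 1 was higher, STING (TMEM173 on the array), the adaptor of cytosolic DNA sensing, by 2.31 ± 0.42. Of 9 other signal transducers 2 were higher, NMI, a partner of IFI35, by 2.68 ± 0.48 and IRF2 by 1.66 ± 0.40. Of 7 receptors and kinases 0 passed. Of 8 antigen presentation genes 2 were higher. Macrophage and granulocyte markers moved with the response, 5 of 13 being higher, 2 of 6 endothelial markers were lower, and 8 T cell markers did not pass. Their part was not tested.

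Other genes that varied with the interferon response over the 28 lung arrays were sought by correlation with the level of each array. Of the 27 members, 23 reached r = 0.8, as 147 of 12982 other genes (1.13%) did. Each member is part of that level and the other genes are not, so these shares cannot be compared directly. The 10 most alike were TRANK1 (r = 0.976), USP41 (0.976), CMTR1 (0.97), SNX10 (0.968), BCO1 (0.968), LYGL (0.967), C19orf12 (0.966), SMCHD1 (0.961), CCL19 (0.958) and APAF1 (0.957). CMTR1 is a cap methyltransferase of mRNA and CCL19 a chemokine that draws T cells and dendritic cells. CCL19 ranged from 6.94 to 13.41 over lung arrays, LYGL, a lysozyme g-like gene, from 7.02 to 13.62 and USP41, a ubiquitin protease, from 8.22 to 13.72. IFNW1 ranged from 4.48 to 8.21, with a median of 5.39; its highest values were 8.21 in day 7 replicate 3, 8.07 in day 28 replicate 3 and 7.89 in day 35 replicate 4. The other arrays were at 6.49 or less, including 5.30 in day 1 replicate 4, where the interferon response level was 3.62. IFNG was between 4.5 and 6.36. IFNL3A, a type III interferon gene, was between 5.06 and 7.03, with the 4 arrays of day 35 at 6.28 to 7.03 and day 42 replicate 3, where the response level was 0.73, at 6.54.

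The macrophage and granulocyte list averaged from 8.27 to 10.04 over lung arrays, and 9 of its 10 highest arrays were among the 10 with the highest interferon response. The T and cytotoxic cell list ranged from 6.82 to 7.78 and the B and plasma cell list from 6.2 to 7.12. Lung markers stayed between 11.81 and 13.21. The red cell list was at 12.24 to 13.69 in the 10 arrays with the highest interferon response and at 13.0 to 13.84 in the others. The endothelial list was at 9.36 to 10.03 in the former and at 9.46 to 10.29 in the latter. The part of these cells in the spread was not tested.

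Liver showed 2 ages with a raised response. IFIT5 was between 5.39 and 5.71 at day 3 and between 5.52 and 5.72 at day 9, and read 9.5, 9.68, 10.51 and 10.23 at day 7. At day 49 it read 8.43, 8.32, 9.14 and 10.08. MX1 went from at most 6.75 at day 3 to between 9.28 and 10.26 at day 7, and back to at most 6.55 at day 9. At day 49 MX1 was between 8.93 and 9.75, and IFI6 between 11.14 and 12.37. IFI6 started at 6.21 to 7.80 at day 0 and read 8.98, 11.09, 9.38 and 9.12 at day 3, 13.31, 13.04, 13.15 and 12.77 at day 7, and 7.63, 8.56, 8.64 and 9.55 at day 9. For these 3 genes every array of days 7 and 49 was above every array of the other ages, although 1 day 3 array of IFI6, at 11.09, came close to the lowest of day 49.

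Day 7 against days 3 and 9 gave 19 of 26 members higher, where 7.05% of 12185 genes were. The median difference was 1.3, against -0.02 for all genes, and 22 of 26 members had every day 7 array above every array of days 3 and 9, where 16.3% of genes did. IFIT5 averaged 9.98 against 5.6, a difference of 4.38 ± 0.23 (adjusted p = 5.77e-15). IFI6 differed by 3.95 ± 0.34, MX1 by 3.41 ± 0.18, EPSTI1 by 3.34 ± 0.20 and ZNFX1 by 2.98 ± 0.17. IRF1, the transcription factor of the interferon-gamma response, differed by 2.57 ± 0.18, SOCS1 by 2.42 and OASL by 1.88. All 3 transcription factors and feedback regulators, 4 of 5 sensors and adaptors, 3 of 4 members of the PARP and DTX3L family and 7 of 12 effectors passed. RSAD2, whose range in lung was among the widest, read 5.79, 6.04, 6.63 and 5.70 at day 7 and differed by only 0.80, under the threshold, as did EIF2AK2 (PKR, the double-stranded RNA kinase) at 0.74 and ZC3HAV1 at 0.76. PARP12 (0.15), HELZ2 (-0.03), TLR3 (0.11) and ADAR (0.83) did not pass either.

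Day 49 against day 9 gave 12 of 26 members higher, where 6.5% of genes were. The day 9 arrays are shared with the day 7 comparison. The median SD of a gene between replicates was 0.421 at day 49 and 0.125 at day 9. Age and this difference in spread go together here, and the test used 1 pooled spread. The median difference was 0.89 against 0.02 for all genes, and 15 of 26 members had no overlap, where 14.5% of genes did. IFIT5 differed by 3.37 ± 0.26 (adjusted p = 9.38e-11), IFI6 by 2.95 ± 0.39, MX1 by 2.88 ± 0.21, ZNFX1 by 2.46 and EPSTI1 by 2.40. OASL differed by 1.98, IRF1 by 1.97 and SOCS1 by 1.59. Effectors made up 7 of the 12. Of the PARP and DTX3L family, 0 of 4 passed, with differences of 0.32 to 0.84, and of 5 sensors and adaptors 1 passed. Leaving out the group labelled liver day 56 changed neither count.

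**Figure D4:**
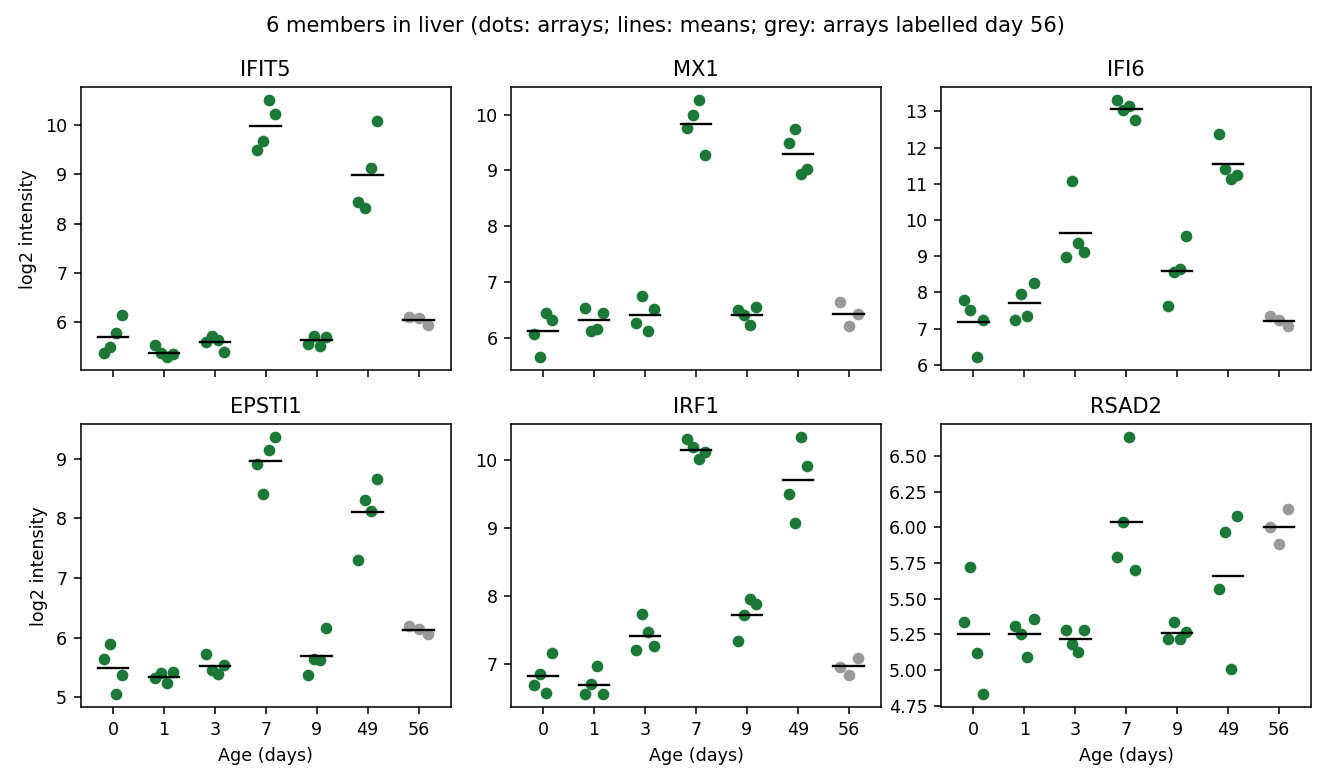
log2 intensity (y axis) of 6 members in every liver array by age in days (x axis); lines are means and grey points the 3 arrays labelled day 56. IFIT5, MX1, IFI6, EPSTI1 and IRF1 are high at days 7 and 49 and low at day 9, and RSAD2 differs by 0.80 between day 7 and days 3 and 9.

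Only 3 interferon genes were tested in liver, and none of them passed. IFNW1 differed by -0.13, IFNG by -0.13 and IFNL3A by -0.16 at day 7, and by 0.41, 0.08 and 0.42 at day 49. Other listed interferon genes, such as IFNA3 and IFNB, were not tested. Antigen presentation rose for 6 of 8 genes at day 7, with BF2, the main class I gene, at 3.03 ± 0.33, TAP2, a peptide transporter, at 1.53 and B2M at 1.49. At day 49, 5 of 8 rose, with BF2 at 1.56 ± 0.38. Markers of immune cells moved with the response. The macrophage and granulocyte list averaged 10.25 at day 7 against 8.56 at day 3 and 8.80 at day 9, with 10 of 13 genes higher, and 10.38 at day 49, with 11 of 13 higher; CD74 is on this list and on that of antigen presentation. The T and cytotoxic cell list averaged 8.13 at day 7, 5.94 at day 3, 6.17 at day 9 and 7.99 at day 49, with 5 and 7 of 9 genes higher. Their part was not tested.

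**Figure D5:**
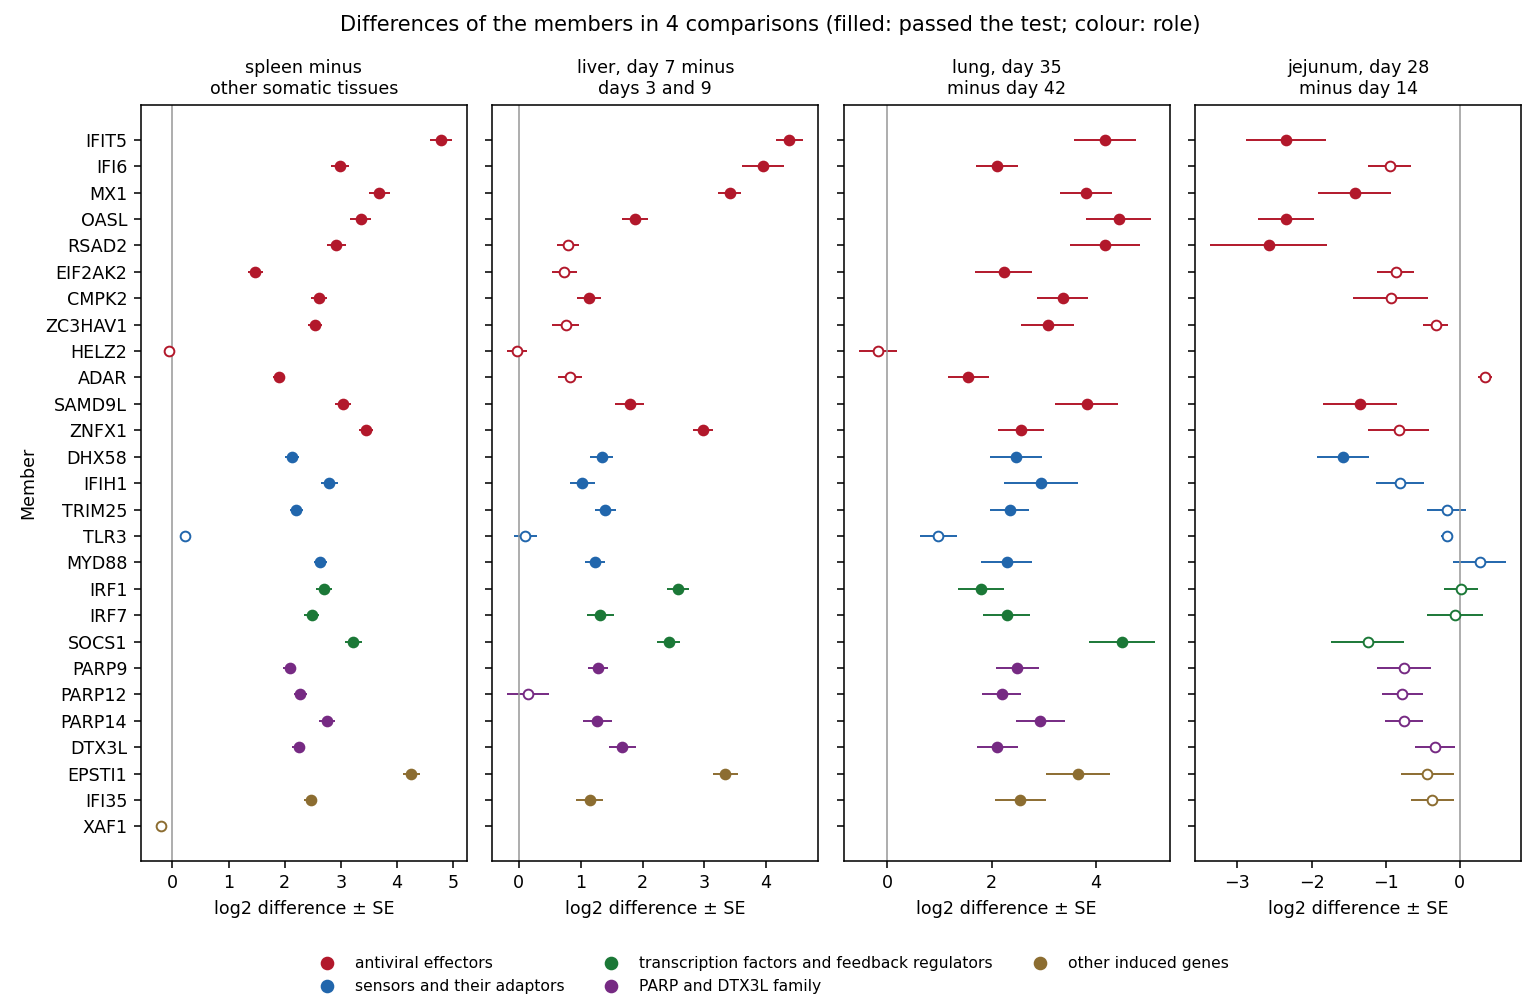
log2 difference ± SE (x axis) of each member (y axis, colour by role) in 4 comparisons; filled points passed the test and members without a point were too dim to be tested. IFIT5, MX1, OASL, DHX58 and SAMD9L pass in all 4. HELZ2 and TLR3 pass in none, and neither does XAF1, which was tested only in the spleen comparison.

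In whole intestine the change from day 0 to day 7 was smaller, and days 3 and 14 lay higher than day 7. The mean interferon response level was 0.03 at day 0, 1.14 at day 3, 0.65 at day 7 and 1.24 at day 14. Of 24 members tested, 5 were higher at day 7 than at day 0, where 1.94% of 10274 genes were. IRF1 read 8.45, 8.13, 7.73 and 8.08 at day 0 and 10.27, 10.25, 10.26 and 10.02 at day 7, a difference of 2.10 ± 0.15 (adjusted p = 2.83e-09). IFIT5 differed by 1.5 ± 0.47 (adjusted p = 0.0164), EPSTI1 by 1.33 ± 0.38, IFI6 by 1.1 ± 0.39 and PARP14, an ADP-ribosyltransferase, by 1.09 ± 0.21. IFI6 was already bright at hatch, at 13.51, 12.36, 11.04 and 11.56. MX1 differed by 1.21 and did not pass (adjusted p = 0.129), with day 0 arrays at 9.71, 7.67, 6.12 and 6.32, the 2 higher ones labelled male. For 10 of 24 members every day 7 array was above every day 0 array, where 12.3% of genes were. The count of 5 was 1 without replicate 3 and 3 without replicate 2. Of 8 antigen presentation genes 6 rose, with BF2 at 3.32 ± 0.30. Markers of other cells moved with these genes: 4 of 7 T cell and 9 of 12 macrophage markers rose, and so did 2 of 2 red cell markers, whose mean went from 7.53 to 11.56. Their part was not tested.

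The change from day 0 to day 7 was compared between liver and whole intestine by an interaction term. It was larger in liver for 13 of 26 members, where 6.23% of genes were. IFI6 went from 7.2 to 13.07 in liver and from 12.12 to 13.22 in intestine, a difference between the changes of 4.77 ± 0.57 (adjusted p = 1.9e-08). IFIT5 went from 5.7 to 9.98 in liver and from 5.9 to 7.4 in intestine, a difference of 2.79 ± 0.53. ZNFX1 (2.62 ± 0.31), MX1 (2.50 ± 0.61), OASL (2.19 ± 0.60), EPSTI1 (2.12 ± 0.44), DTX3L (1.94 ± 0.31) and CMPK2 (1.41 ± 0.37) followed. The count was 5 with array weights. The median SD of a gene between replicates was 0.422 in liver at day 0 and 0.166 at day 7. In intestine it was 0.106 and 0.113, so the 2 spreads were mixed only on the liver side. Between days 0 and 3 the order was the other way, which was not tested. The mean interferon response level then went from 0.03 to 1.14 in intestine and from -0.18 to -0.09 in liver. Of the marker lists, 3 of 9 T cell and 4 of 13 macrophage markers had a larger change in liver, 1 of each had a smaller one, and 2 of 2 red cell markers had a smaller one, with a median of -3.66; the part of these cells was not tested.

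In jejunum the response was lower at day 28 than at day 14, its highest age. The mean interferon response level was 2.44 at day 14, 1.93 at day 21 and 1.74 at day 28. In the second run it was 1.75 at day 1, 2.09 at day 7, 1.3 at day 35 and 1.97 at day 42. Of 25 members tested, 6 were lower at day 28 than at day 14, where 0.562% of 10492 genes were, and none was higher, where 8.09% of genes were. RSAD2 read 6.47, 8.54, 10.66 and 10.61 at day 14 and 6.69, 7.60, 5.59 and 6.09 at day 28, a difference of -2.58 ± 0.79 (adjusted p = 0.0203). IFIT5 read 9.95, 10.95, 12.09 and 11.69 at day 14 and 9.43, 9.99, 7.53 and 8.34 at day 28, a difference of -2.35 ± 0.54. OASL differed by -2.35 ± 0.38, DHX58 (LGP2, a partner of MDA5) by -1.57 ± 0.35, MX1 by -1.42 ± 0.49 and SAMD9L by -1.34 ± 0.49. The 2 brightest RSAD2 arrays of day 14 were labelled female, and replicate 1 of that day lay within the day 28 range of RSAD2. Only 2 of 25 members had no overlap, where 16.1% of genes did. The count of 6 was 12 after quantile normalization and between 2 and 12 when single replicates were left out (12 without replicate 2, 3 without replicate 3 and 2 without replicate 4). Of the macrophage markers 2 of 11 and of the T cell markers 1 of 7 were lower, and 2 of 2 red cell markers were higher, with a median of 1.69; their part was not tested. Day 28 replicate 3, the lowest array for RSAD2 and IFIT5, is the array that nearly equals ileum replicate 3, and without replicate 3 of both ages 3 members passed. IRF1 (0.02), IRF7 (-0.07) and TRIM25 (-0.18), a ubiquitin ligase, did not pass.

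Brain was the tissue tested from the low end. Of 27 members, 19 were lower in brain than in the other somatic tissues, where 6.77% of genes were, with a median difference of -1.73 against -0.03 for all genes. IFI6 differed by -3.67 ± 0.11 (adjusted p = 1.74e-105), TRIM25 by -2.92 ± 0.08, IRF1 by -2.61 ± 0.10 and PARP14 by -2.38 ± 0.10. MX1 differed by -2.21, IFIT5 by -2.17, MYD88 by -2.03 and ZNFX1 by -1.91. TRIM25 differed by -0.93, under the threshold, when its 4 probe sets were averaged. All 8 antigen presentation genes were lower too, with B2M at -3.12. Markers of immune cells moved with these genes: 9 of 13 macrophage and granulocyte markers, 4 of 9 T cell markers and 1 of 8 B cell markers were lower, and their part was not tested. The count was 18 among arrays of the first run and 22 among those of the second.

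Several ages gave no member that passed. In spleen between days 7 and 1, no member of 25 passed in limma, where 0.00949% of genes were higher and 0.0759% lower, and 3 were at an unadjusted p under 0.05, as were 720 of 10537 genes. EIF2AK2 read 7.86, 7.90, 8.54 and 8.09 at day 1 and 9.22, 9.97, 10.65 and 8.81 at day 7, a difference of 1.57 ± 0.35 (adjusted p = 0.062). Its day 7 arrays were all above those of day 1, as for 3 of 25 members, where 1.67% of genes were. OASL (-0.73) and ADAR (0.68) had adjusted p of 0.702 and 0.7. The spleen response at day 1, at 2.69 to 3.17 per array, was within the range of later ages. In duodenum between days 35 and 14, no member of 26 and 0% of genes passed in limma, and no member and 173 of 11334 genes were at an unadjusted p under 0.05; MX1 differed by -0.91 ± 0.58, OASL by -0.81 and EPSTI1 by -0.51. In brain between days 42 and 28, no member of 20 and 0% of genes passed in limma, and no member and 149 genes were at an unadjusted p under 0.05; IFI6 differed by -0.56 ± 0.32, OASL by -0.46 and ZC3HAV1 by -0.29.

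In abdominal fat 1 array of a group stood out at several ages. Between days 49 and 10, TRIM25 alone of 25 members was lower, by -1.38 ± 0.55 (adjusted p = 0.0368), where 27% of genes were lower, and none was higher, where 5.9% of genes were. The median of all genes was -0.2. The tissue itself differed between these ages: 4 of 4 fat markers were higher at day 49, with a median difference of 5.54, as were 6 of 7 endothelial and 2 of 2 red cell markers. Lung markers averaged 5.54 at day 10 and 7.17 at day 49, where arrays ran from 5.74 to 10.09. Liver markers averaged 5.87 and 7.72, with day 49 arrays from 5.75 to 10.11. No lung or liver marker passed. At day 14 lung markers averaged 10.22, the highest group outside lung. The part of all these markers was not tested. TRIM25 differed by -0.66 after quantile normalization and by -0.12 with its probe sets averaged, and did not pass in either. By contrast, 5 members passed as higher after quantile normalization and 5 with array weights, so neither count is firm for this tissue. MX1 read 6.40, 9.58, 7.55 and 6.51 at day 10 and 7.38, 12.12, 8.30 and 7.32 at day 49. The array numbered 2 was the highest of its group at both ages and again at day 14. There it was at 10.95 and the other arrays at 7.44 to 7.87. The numbers were not read as pairing samples across ages. Same-numbered arrays of days 49 and 10 deviated together at r from -0.006 to 0.117. Of the 4 arrays of day 49, 3 correlated best with the day 10 array of their own number.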

How the data were processed

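Total RNA was hybridised to 1-colour Affymetrix GeneChip chicken arrays, per the labels. The authors' deposited table held 1 value per probe set and array, which read as log2 intensities from their range (3.01 to 15.79) and their array medians (5.99 to 6.47). Affymetrix Expression Console 1.1 was used, per the submitters' processing notes; its background correction, summary and normalization are not given in the sources used here, and a normalization across arrays can shrink or shift differences between tissues.

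Of 38535 probe sets, 96 controls were left out; 27168 had 1 gene symbol in the platform annotation, 177 several and 11094 none. Gene IDs matched the current gene table for 26853 named probe sets; that of PARP14 did not, and its platform symbol was kept. Each of 13009 genes was read from its probe set with the highest mean. No table of sequences was used here. The members, gene lists and comparisons were chosen with earlier results of these data known.

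Samples were grouped by the tissue and age in their titles, and replicate numbers were not read as pairing samples. Each comparison was fitted with limma 3.58.1 (R 4.3.3; lmFit, eBayes) with 1 mean per group over all groups of the tissue in that run, or over 379 arrays of 16 somatic tissues. Genes were tested if their highest group mean reached the 25th percentile of values, and p was adjusted by Benjamini-Hochberg over all genes tested. Members named were up to 8 per direction by size among those called, or up to 3 where none was; IFIT5, MX1, RSAD2, OASL and IFI6 were followed in lung, and other members and array values were added for contrast after they were seen. The number of arrays limits the precision. On simulated data each gene was drawn independently at its own spread. Changes of log2 1.5 were recovered in 92% of 100 genes for lung days 28 and 21. The share was 59% for lung days 35 and 42 and 68% for spleen days 7 and 1. The changed genes were drawn at random from the brighter genes only. Another 100 were changed by log2 3 at the same time, which makes the adjusted threshold easier to pass. The shares were not computed for the members and do not tell how often a change of a member would pass.

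Alternatives were no filter, quantile normalization, centring, averaged probe sets, array weights, the replicate number as a block, each replicate left out, single runs, and only the groups compared; leaving out groups with doubtful labels was added after seeing the data. Tables and figures were made with Python 3.11.15, pandas 2.3.3, numpy 2.4.6 and matplotlib 3.10.9.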

Additional observations from a re-analysis of the deposited data

Results flagged for a closer look

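Among 131 sets of 4 to 10 arrays tested for an array far from the rest of its group, 6 had one; chance alone gives about 1 in 20. Spleen day 28 replicate 3 had an interferon response level of 3.57 and its fellows 0.81 to 0.97. Abdominal fat day 14 replicate 2 was at 1.48 and the others at 0.01 to 0.23. Smaller gaps set apart retina day 35 replicate 4 (-0.63 against -0.99 to -0.96), abdominal fat day 35 replicate 4 (0.1 against -0.13 to -0.1) and replicate 1 of the second pectoralis set of day 28 (-0.07 against -0.24 to -0.23). OASL in lung day 14 replicate 4 was at 8.4 and in the others at 7.87 to 7.92.

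The change from day 0 to day 7 differed between liver and whole intestine for 13 of 26 members by an interaction term. In that direction 6.23% of genes did, and with array weights 5 members did. The differences were 4.77 for IFI6, 2.79 for IFIT5, 2.62 for ZNFX1, 2.5 for MX1, 2.19 for OASL, 2.12 for EPSTI1, 1.94 for DTX3L and 1.41 for CMPK2, each larger in liver.

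A signal appeared in lung outside the named genes. Among 11094 probe sets without a gene symbol, 21 had a range of more than 5 log2 units over the 28 lung arrays, and they were singled out after their values were seen. The widest ran from 4.98 to 13.71 and its highest array of any other tissue was at 6.86. The 10 lung arrays with its highest values were the same 10 that had the highest interferon response, and its r with that level was 0.95 over 28 arrays, as a description. Neither the array table nor the gene tables used here name it. The next 3 ranged over 8.29, 7.84 and 7.27 log2 units in lung and reached at most 6.37, 7.28 and 6.45 elsewhere. The other 17 were not all of this kind: some were as bright elsewhere, up to 14.21 in ovary, 13.82 in spleen and 13.12 in abdominal fat, and their r with the response went down to -0.54. Of all unnamed probe sets, 61 (0.55%) had an r of 0.8 or more with the interferon response in lung.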

How the results depend on the processing

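The counts of members that passed stayed within 1.5 times of those reported in 316 recomputations and moved in 20. The cause was not tested. Both directions of each comparison were counted, and the 316 include counts of 0 that stayed at 0. They are therefore no measure of how firm the counts above 0 are. For jejunum, members lower at day 28 were 12 after quantile normalization and 2 to 12 with single replicates left out. For abdominal fat, members higher at day 49 were 5 after quantile normalization, 1 with centred arrays, 5 with array weights, 2 with a replicate block and 0 to 2 with replicates left out; members lower were 0 after quantile normalization, with centred arrays, with averaged probe sets and with only the groups compared, and 0 to 2 with replicates left out. For whole intestine the count ran from 1 to 7 with replicates left out. The difference between liver and intestine in the change from day 0 to day 7 held for 5 members with array weights. EPSTI1 in duodenum ran from -0.82 to 0.12 with replicates left out, reversing without replicate 3. With the replicate block, 1 member, EIF2AK2 at 1.57, passed in spleen between days 7 and 1. Of the recomputed values of single members, 952 kept their direction and side of the threshold, 38 no longer passed, 1 newly passed and 1 reversed. Same-numbered replicates deviated together at r from -0.299 to 0.279, and in no comparison were all pairs over 0.1, so the numbers were not read as pairs. Leaving out the groups labelled liver day 56, spleen day 28 or ileum day 28, chosen after seeing the data, left the counts at 24 for spleen, 22 to 23 for lung, 18 to 19 for brain, and 19 and 12 for liver days 7 and 49. Members under the filter on dim genes, such as XAF1 in all age comparisons, were not tested there.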

Other observations

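LOC770612, a gene that is not on the list and that the gene table gives IFITM3 as a synonym, averaged 13.54 in spleen, 13.37 in lung, 11.85 in abdominal fat and 8.29 in oocytes, its lowest tissue; IFITM proteins block viral entry at membranes.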
